A study of Arabidopsis thaliana with 109 samples.

Results

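The genes described here carry the nuclear auxin signal of Arabidopsis thaliana. They are 43 of the 33602 gene models in each of 3 deposited expression tables. They were chosen by gene family and locus identifier, with earlier results of these data known. They comprise 29 Aux/IAA genes, 9 ARF genes (ARF1 to ARF8 and ARF19) and the 5 receptor genes TIR1, AFB1, AFB2, AFB3 and AFB5. RNA-seq was made from seedlings grown in light and moved to light of a low ratio of red to far-red (low R:FR), the signal of vegetation shade. Table I covers wild type (Col-0) with 3 libraries in each of 3 groups: plants kept in white light, plants given 2 h of low R:FR, and plants returned to white light for a further 2 h, called recovery. Table II holds a line labelled pif457_PIF7:PIF7:4xMYC, which carries a MYC-tagged PIF7 in the pif457 background, with 3 libraries at each of 4 points: white light, then 5, 10 and 30 min into low R:FR. Table III sets Col-0 beside pif457, both kept in white light or given 30 min of low R:FR, with 2 libraries a group. Every group of table II carries both the mutations and the transgene and the table has no wild type, and the labels do not say whether the line or pif457 goes back to a single plant.

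Auxin acts in the nucleus by gluing Aux/IAA proteins to TIR1/AFB receptors, which are F-box subunits of an SCF ubiquitin ligase. The Aux/IAA proteins are then degraded, and the ARF transcription factors that they held in check with TOPLESS-type corepressors are released. Many Aux/IAA genes are themselves targets of ARFs, so that their transcripts are widely read as an auxin response, and shade raises auxin levels in seedlings. PIF7, a phytochrome-interacting transcription factor that binds G-box DNA (CACGTG), is known to be needed for shade-induced auxin synthesis.

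Values are the authors' TPM (a transcript level scaled for gene length and library total), and changes are differences of log2(TPM + 1) with their standard error (SE). Calls, raised or lowered, are at an adjusted p under 0.05 from limma, fitted over all genes of a table and adjusted with Benjamini-Hochberg. Missing that threshold does not show that a level was unchanged. The labels do not tie replicates to separate cultures, and the p-values may therefore measure technical spread alone. TPM tables were scaled separately and keep no depth, and the estimation shares reads among similar paralogues. In bulk seedlings, fewer cells of a type and less RNA per cell cannot be told apart, and harvest hours are not given for these libraries.

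All 5 seedling shoot markers were above 0 in all 29 libraries, and the 6 root markers summed to 409 to 1696 TPM. In table I the shoot marker LHCB2.1 was lowered against white light at 2 h (log2 change -0.85, adjusted p = 0.0347, limma) and in recovery (-1.04, adjusted p = 0.0271). No other shoot marker was called in these 2 comparisons. The 4 flower or seed markers summed to 32.0 to 176 TPM in table I, 4.18 to 427 TPM in table II and 1.94 to 142 TPM in table III. PIF7 stood at 0.35 to 1.47 TPM in pif457, at 21.6 to 28.0 TPM in the Col-0 libraries of table III and at 70.0 to 137 TPM in table II. In table I it stood at 50.8 to 54.3 TPM in white light, 11.2 to 19.9 TPM at 2 h and 28.3 to 40.3 TPM in recovery. Within table II it stood at 119 to 136 TPM in white light and 70.0 to 78.6 TPM at 30 min. PIF5 was lower in pif457 than in wild type, at a mean of 3.37 against 37.9 TPM in white light (adjusted p = 0.00774, limma) and 2.03 against 20.3 TPM at 30 min (adjusted p = 0.00534). PIF4 stood at 11.6 against 39.8 TPM in white light without a call (adjusted p = 0.297), and was lower at 30 min, at 4.74 against 14.3 TPM (adjusted p = 0.0299). One library stood apart before any test. In replicate 1 of pif457 at 30 min, ribosomal RNA and organellar transcripts took 23.1% of TPM against 4.09 to 12.0% in the other 7 libraries of table III. Its summed levels were the lowest of that table for all 3 families, at 703 TPM for Aux/IAA, 193 TPM for ARF and 136 TPM for TIR1/AFB genes.

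In white light, a few Aux/IAA genes held most of the family's level. IAA9, IAA7, IAA16 and IAA8 held 62.6 to 66.7% of the summed Aux/IAA TPM in the white light libraries of table I. IAA9 was first at 161 ± 2.41 TPM (SD, n = 3), and its libraries did not overlap those of IAA7, next in order at 125 ± 18.1 TPM. IAA7, IAA16 and IAA8, at 107 TPM for the last, overlapped their neighbours in that order. At the other end IAA5, IAA6, IAA15, IAA32, IAA33 and IAA34 were listed at 0 in all 3 white light libraries of table I. Most of these were also near the floor in white light in tables II and III, where IAA5 ranged from 0.19 to 1.03 TPM and IAA6 from 0.07 to 1.39 TPM in lines other than pif457. Among the ARF genes ARF2, a repressor of the class that competes with activating ARFs, was first at 87.2 ± 12.6 TPM, and ARF19, an activator, was last at 12.5 ± 0.344 TPM. TIR1 was the highest receptor gene at 48.2 ± 5.42 TPM and AFB1 the lowest at 15.2 ± 2.51 TPM, and AFB3, AFB5 and AFB2 lay between at 40.1, 35.8 and 32.7 TPM with overlapping neighbours.

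After 2 h of low R:FR many Aux/IAA genes rose, and no ARF or receptor gene was called raised. In wild type 11 of the 28 Aux/IAA genes tested were raised and none was lowered (IAA33 was at 0 throughout). None of the 9 ARF genes was called (limma, and none at an unadjusted p under 0.05), and of the receptor genes TIR1 was lowered. Over all 25331 genes tested, 1.24% were raised and 0.734% lowered. The median log2 change was 0.62 over Aux/IAA, 0.04 over ARF and -0.09 over TIR1/AFB genes, against -0.01 over all genes. The summed Aux/IAA level was 743 to 822 TPM in white light, 1455 to 1669 TPM after 2 h of low R:FR and 702 to 820 TPM after recovery, whereas the ARF sum stayed between 259 and 328 TPM in all 9 libraries.

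**Figure D1:**
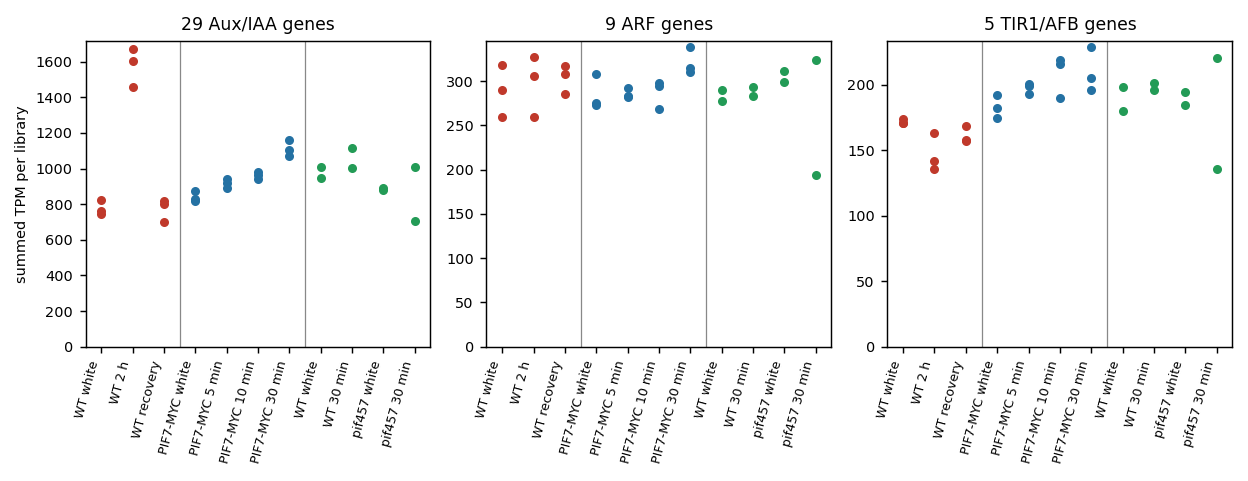
Summed TPM per library (y axis, linear) of the 29 Aux/IAA, 9 ARF and 5 TIR1/AFB genes in each group (x axis), with tables I, II and III from left to right separated by lines and 1 point per library. The 3 libraries at 2 h stand at 1455 to 1669 TPM in the Aux/IAA panel, above all others, and replicate 1 of pif457 at 30 min is the lowest point of table III in each panel.

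IAA29 and IAA19, repressor genes long used as markers of shade and auxin response, had the largest log2 changes among the called genes that were above 0 in white light. IAA29 (AT4G32280) had 7.07, 3.92 and 3.29 TPM in the white light libraries, and 154, 171 and 207 TPM in those of 2 h. That was a log2 change of 5.00 (SE 0.258, adjusted p = 9.03e-06, limma). IAA19 (AT3G15540) went from 1.61, 1.34 and 2.52 TPM to 85.3, 84.1 and 76.6 TPM, a log2 change of 4.90 (SE 0.287, adjusted p = 2.69e-05). The groups lay far apart for both genes, and together they made up 0.708 to 1.06% of the Aux/IAA sum in white light and 15.9 to 17.0% after 2 h.

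Genes of moderate level in white light rose by less. IAA2 (AT3G23030), at 44.1, 46.4 and 39.2 TPM in white light, reached 218, 265 and 247 TPM, a log2 change of 2.46 (SE 0.182, adjusted p = 0.000111). IAA3 (AT1G04240), the SHY2 repressor of root and light development, was at 18.0, 17.6 and 23.5 TPM and then at 57.1, 44.4 and 55.9 TPM (log2 change 1.37, SE 0.173, adjusted p = 0.00328). IAA4 (AT5G43700), its close relative, was at 44.7, 37.7 and 39.3 TPM and then at 79.5, 108 and 108 TPM (log2 change 1.25, SE 0.161, adjusted p = 0.0037). In each of these genes all low R:FR libraries were above all white light libraries. The most abundant member, IAA9 (AT5G65670), rose as well, from 164, 161 and 159 TPM to 241, 265 and 269 TPM (log2 change 0.68, SE 0.0854, adjusted p = 0.00326). IAA1 (AT4G14560) was at 9.58, 13.5 and 6.02 TPM and then at 30.6, 37.6 and 43.2 TPM (log2 change 1.88, SE 0.385, adjusted p = 0.0391). The IAA1 call was the less secure one, since it was lost with a replicate block (adjusted p = 0.0888) and in 5 of 6 fits that left out a library.

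Other Aux/IAA genes were listed at 0 in white light and above 0 after 2 h. IAA5, at 0 in each white light library, was at 13.0, 11.5 and 11.2 TPM after 2 h (adjusted p = 0.000322, limma). IAA6, the SHY1 gene, was likewise listed at 0 and then at 6.69, 8.15 and 10.9 TPM (adjusted p = 0.000114). IAA32 and IAA34 encode a pair of Aux/IAA proteins without the degron that TIR1/AFB receptors recognise. IAA32 was listed at 0 and then at 10.2, 8.52 and 14.0 TPM (adjusted p = 0.00508), and IAA34 was listed at 0 and then at 6.91, 10.5 and 4.93 TPM (adjusted p = 0.00328). No fold is given for these 4 genes, since their white light level is 0. IAA30, another member without the degron, was at 0, 1.88 and 2.37 TPM and then at 4.88, 8.46 and 16.2 TPM without passing the test (log2 change 2.21, SE 0.529, adjusted p = 0.0706). The 5 members that lack the degron made up 0.158 to 0.311% of the Aux/IAA sum in white light and 1.71 to 2.11% after 2 h.

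**Figure D2:**
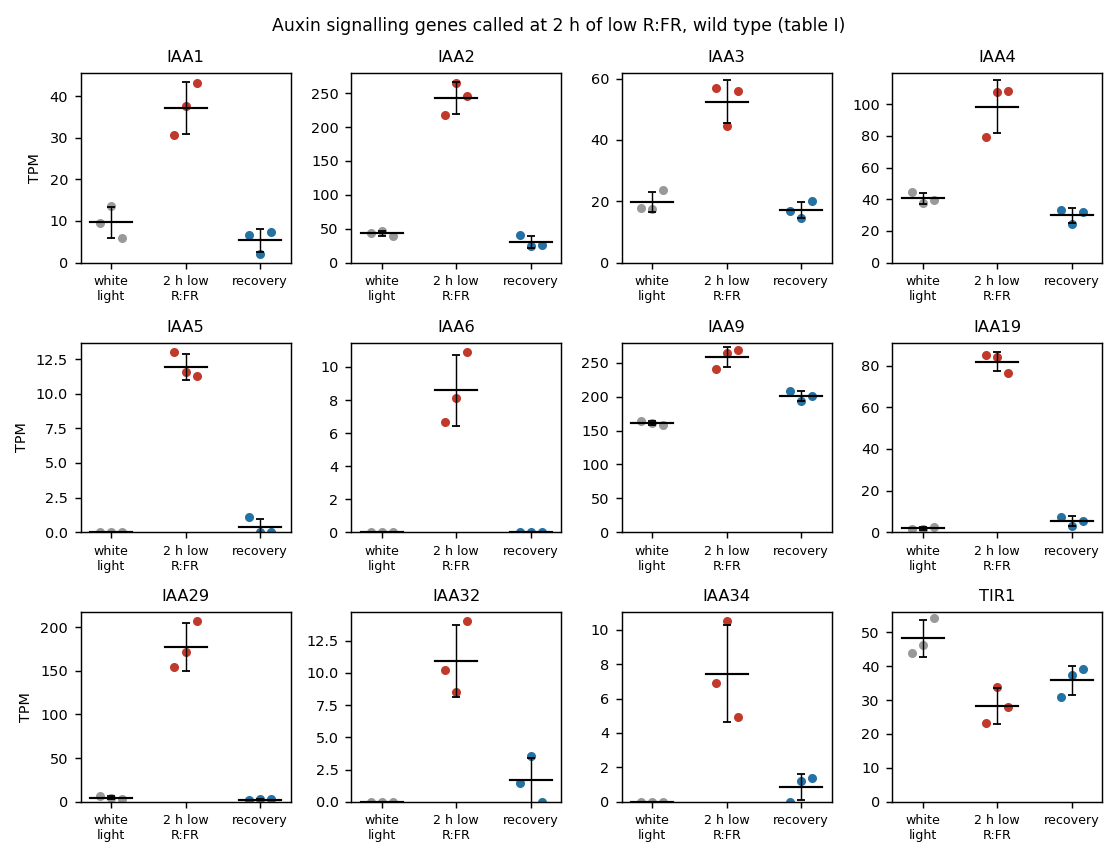
TPM (y axis, linear, from 0) of the 12 genes called at 2 h of low R:FR in wild type, by group (x axis). Points are libraries, horizontal bars the mean and error bars the SD (n = 3). IAA29 rises from 3.29 to 7.07 TPM to 154 to 207 TPM and returns to 1.83 to 2.96 TPM in recovery, and TIR1 is the 1 gene whose 2 h libraries lie below white light.

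Of the receptor genes TIR1 (AT3G62980) was at 44.0, 46.3 and 54.3 TPM in white light, against 23.2, 33.8 and 27.8 TPM after 2 h, a log2 change of -0.76 (SE 0.161, adjusted p = 0.0454). The groups did not overlap, but the call was lost in 5 of 6 fits that left out a library, with adjusted p from 0.0751 to 0.127 in those fits. AFB5, from the branch of receptors that also binds the herbicide picloram, was at 36.5, 33.6 and 37.3 TPM and then at 26.8, 23.4 and 24.2 TPM without passing (log2 change -0.51, adjusted p = 0.0779). AFB1 (AT4G03190), known from roots for rapid auxin responses, was at 18.0, 14.7 and 13.0 TPM and then at 23.6, 24.9 and 26.3 TPM, also without passing (log2 change 0.68, adjusted p = 0.0931). Groups of both genes did not overlap.

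ARF7 (AT5G20730) and ARF19, the pair of activators that act in seedling growth and lateral root formation, did not pass at 2 h. ARF7 was at 19.1, 19.9 and 21.7 TPM in white light, against 18.9, 21.3 and 22.5 TPM at 2 h (log2 change 0.04, 95% interval -0.28 to 0.36). ARF19 (AT1G19220) was at 12.9, 12.2 and 12.4 TPM and then at 14.1, 18.8 and 15.6 TPM (log2 change 0.34, 95% interval -0.10 to 0.77). Among the 28 other genes of the pathway (14 more ARF genes, AFB4, 5 TOPLESS-type corepressors and 8 SCF subunits and regulators) 24 could be tested and ARF18 was raised, from 13.2 ± 4.18 to 32.1 ± 3.56 TPM (SD, n = 3; log2 change 1.25, adjusted p = 0.0184, limma).

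Among the Aux/IAA genes 3 pairs are direct neighbours, with 0 protein-coding genes between them in the RefSeq gene table of TAIR10.1. They are IAA1 with IAA14, IAA2 with IAA7 and IAA3 with IAA17. The first gene of each pair was called at 2 h and the second was not, though no test of the difference between neighbours was made. IAA14 (AT4G14550), the SLR repressor of lateral root initiation, was at 8.42, 5.37 and 8.82 TPM and then at 8.56, 10.7 and 4.57 TPM (log2 change 0.03, 95% interval -0.73 to 0.78). IAA17, the AXR3 repressor, had a log2 change of 0.32 (SE 0.286, adjusted p = 0.647). IAA7, the AXR2 repressor, was at 145, 119 and 109.7 TPM and then at 174, 184 and 194 TPM, with groups that did not overlap (log2 change 0.57, SE 0.135, adjusted p = 0.0695). Its interval reached from 0.27 to 0.87 and that of IAA2 from 2.06 to 2.87.

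When 2 h of white light followed the low R:FR, 11 Aux/IAA genes were lower than at 2 h of low R:FR. All recovery libraries of IAA9, IAA19 and ARF6 lay above all white light libraries. Those of IAA4, IAA10, IAA13, IAA14, IAA16, IAA29, ARF4, ARF19, TIR1 and AFB5 lay below all of them. The share of all genes separated in either way was not counted. None of the 42 members tested was called in recovery against white light (limma, with 12 at an unadjusted p under 0.05), where 0.395% of all genes were raised and 0.316% lowered. Against 2 h of low R:FR no member was raised, and the 11 lowered genes stand beside 0.746% of all genes lowered and 0.359% raised. Both comparisons share libraries with the one at 2 h, so that they are not independent of it. IAA29 was at 1.83, 2.96 and 2.64 TPM in recovery (log2 change -5.68 from 2 h, SE 0.258, adjusted p = 3.96e-06). IAA19 was at 7.48, 3.03 and 5.41 TPM (log2 change -3.78 from 2 h), with all 3 libraries still above those in white light but without a call against them (log2 change 1.12, adjusted p = 0.12). IAA2 was at 40.7, 23.9 and 25.9 TPM (log2 change -3.00 from 2 h), IAA1 at 6.68, 2.17 and 7.25 TPM (log2 change -2.69) and IAA4 at 33.2, 24.5 and 32.2 TPM (log2 change -1.68).

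Of the genes listed at 0 in white light, IAA5, IAA6 and IAA34 went back to 0 or near it. IAA6 was listed at 0 in all 3 recovery libraries, IAA5 was at 1.06 TPM in 1 and at 0 in the others, and IAA34 was at 0, 1.21 and 1.35 TPM, each with a call against 2 h. IAA3 was at 16.9, 14.5 and 20.0 TPM (log2 change -1.56 from 2 h, adjusted p = 0.00182). The other calls were IAA16 and IAA13, which had not been called at 2 h. IAA16 (AT3G04730) was at 115, 102 and 108 TPM in white light, 121, 131 and 150.4 TPM at 2 h and 70.3, 83.4 and 76.2 TPM in recovery (log2 change -0.80 from 2 h, adjusted p = 0.00676). Its recovery libraries also lay below all white light libraries, without a call (adjusted p = 0.0798). IAA13 was at 7.48, 6.18 and 8.49 TPM in recovery, below all libraries of both other groups (log2 change -1.38 from 2 h, adjusted p = 0.0177). The calls of IAA13 and IAA34 were lost in 5 and 4 of 6 fits that left out a library. IAA9 and IAA32 were raised at 2 h and not called between 2 h and recovery. IAA9 stood at 208, 193 and 201 TPM in recovery, between the other groups with no overlap (adjusted p = 0.108 against 2 h and 0.138 against white light), and IAA32 at 1.45, 3.52 and 0 TPM (adjusted p = 0.0521 against 2 h). TIR1 was at 30.9, 37.4 and 39.1 TPM, overlapping the 2 h libraries and below those in white light, with no call against either.

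**Figure D3:**
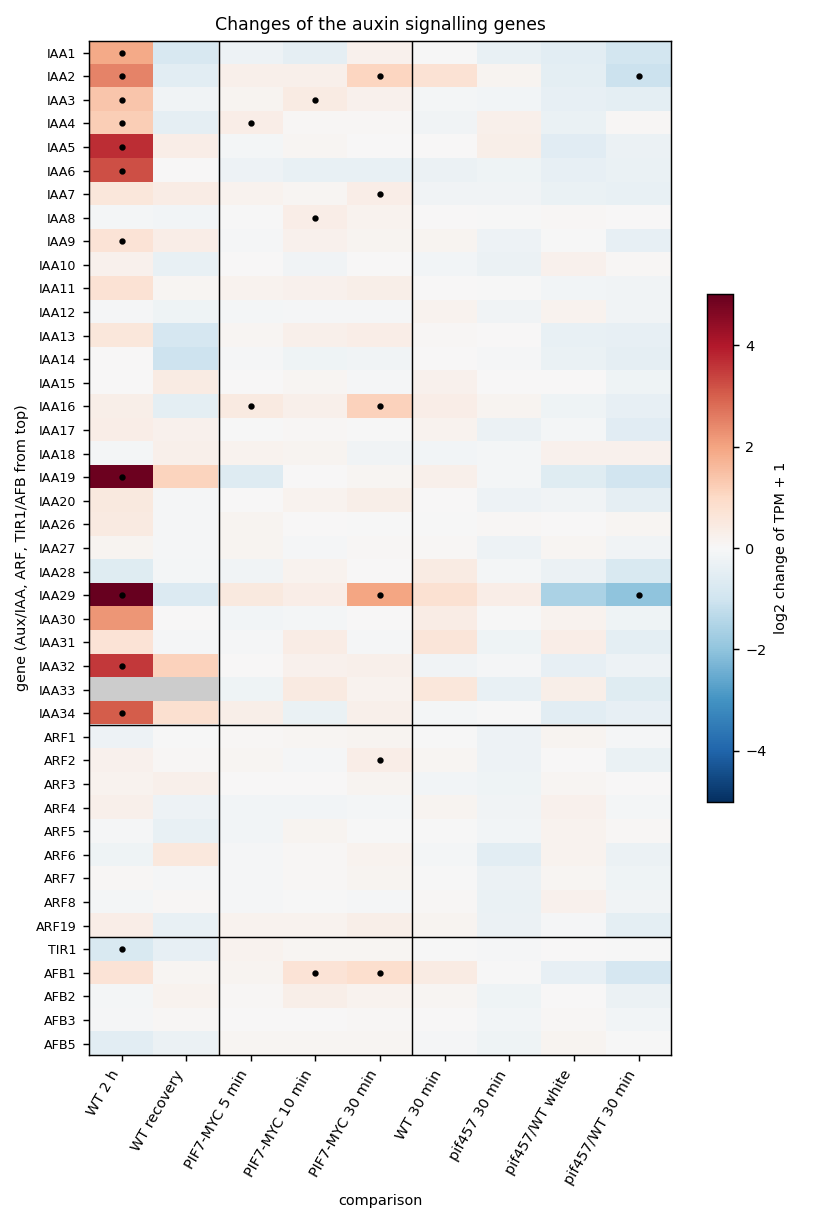
Log2 change of TPM + 1 (colour, red higher and blue lower in the group named first or after low R:FR) of the 43 genes (rows, families separated by lines) in 9 comparisons (columns, tables separated by lines). Dots mark calls at an adjusted p under 0.05 and grey marks a gene at 0 in every library of its table. Red of 4.90 and 5.00 for IAA19 and IAA29 at 2 h has no like value in the columns of 30 min or less.

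In the line with tagged PIF7, between 2 and 6 members were called at each time within the first 30 min of low R:FR, all of them raised. At 5 min IAA4 and IAA16 were raised of 43 tested, beside 2.58% of all genes raised and 1.31% lowered. At 10 min IAA3, IAA8 and AFB1 were raised, beside 4.19% raised and 2.24% lowered. At 30 min IAA2, IAA7, IAA16, IAA29, ARF2 and AFB1 were raised, beside 3.80% raised and 1.03% lowered. The summed Aux/IAA level was 819 to 873 TPM in white light and 1073 to 1163 TPM at 30 min.

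IAA29 was at 2.24, 1.38 and 2.51 TPM in white light, at 2.58, 3.48 and 3.72 TPM at 5 min, at 2.61, 3.23 and 2.53 TPM at 10 min and at 10.2, 11.3 and 11.3 TPM at 30 min. Libraries of 5 and 10 min overlapped each other and lay above those of white light, though close to them and without a call. The 30 min libraries of IAA29 stood clear of all others. Its log2 change at 30 min was 1.99 (SE 0.163, adjusted p = 6.96e-05), and 1.66 from 10 to 30 min (adjusted p = 0.000328). IAA16 was at 103, 119 and 113 TPM in white light, 154, 148 and 159 TPM at 5 min, 131, 145 and 124 TPM at 10 min and 258, 224 and 259 TPM at 30 min. It rose at 5 min (log2 change 0.45, SE 0.0775, adjusted p = 0.0135) and at 30 min (log2 change 1.13, SE 0.0775, adjusted p = 2.13e-05), was not called at 10 min (adjusted p = 0.078), and at 30 min was the most abundant Aux/IAA transcript in all 3 libraries. The 5 min call was lost without replicate 3 of 5 min (adjusted p = 0.0656). IAA2 was at 54.5, 47.4 and 56.4 TPM in white light, against 110.0, 101 and 120.5 TPM at 30 min (log2 change 1.06, SE 0.1, adjusted p = 0.000205).

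IAA19 did not join IAA29 at 30 min. It was at 2.54, 3.69 and 4.17 TPM in white light, 1.06, 2.48 and 2.23 TPM at 5 min, 3.60, 3.22 and 3.76 TPM at 10 min and 3.49, 3.68 and 4.15 TPM at 30 min. The change at 30 min was 0.11 on the log2 scale, with a 95% interval of -0.33 to 0.56. Between 5 and 10 min it was called raised (log2 change 0.67, adjusted p = 0.0497), a call lost in 5 of 6 fits that left out a library. IAA1, at 8.19, 6.90 and 7.84 TPM in white light and 10.2, 8.44 and 8.56 TPM at 30 min, was not called against white light either (log2 change 0.22, 95% interval -0.16 to 0.60). IAA5, IAA6, IAA32 and IAA34 stayed between 0 and 1.23 TPM in all 12 libraries.

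Small rises early in the series were less secure. IAA4 was at 40.9, 44.2 and 45.5 TPM in white light and 54.4, 51.7 and 61.2 TPM at 5 min (log2 change 0.35, SE 0.0802, adjusted p = 0.0404), and was back at 41.3, 47.1 and 47.8 TPM at 10 min. Its 5 min call was lost in all 6 fits that left out a library. IAA3 rose from 23.5, 22.4 and 21.5 TPM to 32.7, 31.8 and 27.5 TPM at 10 min (log2 change 0.43, SE 0.0803, adjusted p = 0.0197). IAA8, a member of high level, rose from 153, 164 and 142 TPM to 201, 183 and 197 TPM at 10 min (log2 change 0.34, SE 0.064, adjusted p = 0.0198). Each of these was lost in 4 of 6 such fits and with median centring. At 30 min IAA7 was at 132, 136 and 131 TPM against 105, 107 and 103 TPM in white light (log2 change 0.34, SE 0.0657, adjusted p = 0.0166), a call lost in 4 of 6 such fits.

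One ARF and 1 receptor gene were called at 30 min. ARF2 (AT5G62000) was at 93.3, 91.0 and 97.1 TPM in white light, 91.9, 90.8 and 90.7 TPM at 10 min and 122, 114 and 121 TPM at 30 min (log2 change 0.34 against white light, SE 0.0435, adjusted p = 0.00176). With median centring its adjusted p was 0.0548. AFB1 was at 18.4, 19.8 and 14.1 TPM in white light, 18.7, 20.0 and 18.7 TPM at 5 min, 28.3, 25.5 and 30.9 TPM at 10 min and 28.5, 31.0 and 36.5 TPM at 30 min. The 5 min libraries overlapped white light, and those of 10 and 30 min were above both (log2 change 0.67, adjusted p = 0.0198, at 10 min, and 0.85, SE 0.127, adjusted p = 0.0046, at 30 min). The 10 min call was lost in 4 of 6 fits that left out a library, and the 30 min call in none of them, though it was lost when the compared groups were fitted alone (adjusted p = 0.0528). The 6 root markers summed to 409 to 852 TPM in white light, 675 to 745 TPM at 5 min, 1039 to 1134 TPM at 10 min and 855 to 931 TPM at 30 min, with NRT2.1 at 0 in 5 of the 12 libraries, and their part in the AFB1 result was not tested. Of these markers PYK10 was raised at 10 min (log2 change 0.93, adjusted p = 0.026). PRP3, TIP2;3 and EXPA7 had log2 changes of 2.42, 1.75 and 1.45 at 10 min without a call (adjusted p = 0.095, 0.0706 and 0.0748). CASP1 went from a mean of 6.61 to 14.1 TPM, also without a call, and NRT2.1 changed by 0.006. From 5 to 10 min EXPA7 was called raised (log2 change 1.72, adjusted p = 0.0293). None was called at 30 min, with changes of 0.75 for PRP3, 0.64 for TIP2;3, 0.18 for EXPA7 and 0.68 for PYK10. TIR1 stayed between 56.2 and 70.2 TPM in the 12 libraries and was not called at any time.

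**Figure D4:**
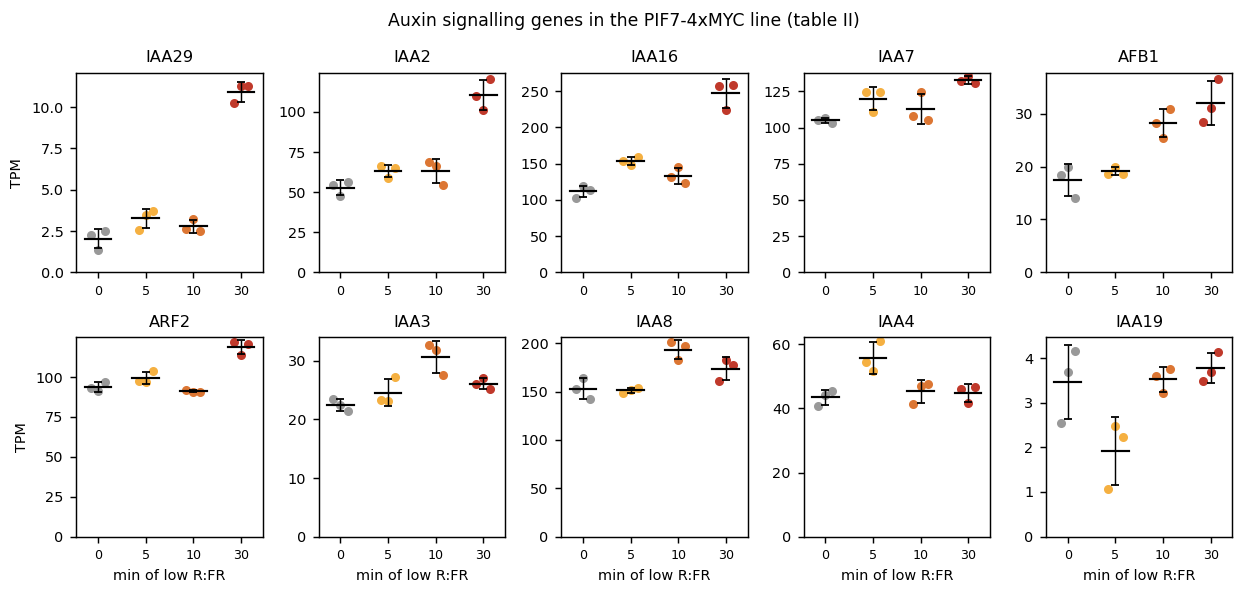
TPM (y axis, linear, from 0) of 10 genes in the line with tagged PIF7 by minutes of low R:FR (x axis, 0 for white light). Points are libraries, horizontal bars the mean and error bars the SD (n = 3). IAA29 and IAA16 reach 10.2 to 11.3 TPM and 224 to 259 TPM at 30 min, AFB1 is already at 25.5 to 30.9 TPM at 10 min, and IAA19 shows no rise over white light.

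From 5 to 10 min, when 9.85% of all genes were raised and 5.21% lowered, IAA3, IAA8, IAA9, IAA19 and AFB1 were raised and IAA4 was lowered. IAA9 was at 128, 126 and 126 TPM at 5 min and 151, 157 and 159 TPM at 10 min (log2 change 0.29, SE 0.0601, adjusted p = 0.0116), and the changes of IAA8 and AFB1 were 0.35 and 0.54. These 5 raised members of 43 are near the background. From 10 to 30 min, when 4.43% of all genes were raised and 3.81% lowered, IAA1, IAA2, IAA7, IAA16, IAA29 and ARF2 were raised, and none was lowered. The change was 0.88 for IAA16, 0.80 for IAA2, 0.66 for IAA1, 0.38 for ARF2 and 0.24 for IAA7. The calls of IAA7 (adjusted p = 0.0489) and IAA1 (adjusted p = 0.0416) were lost in 11 and 6 of 13 alternatives, the replicate block among them for IAA7. Of the 23 other pathway genes tested, ARF11 (log2 change 0.59, adjusted p = 0.00529) and ARF18 (log2 change 0.55, adjusted p = 0.0203) were raised at 30 min against white light. Between neighbouring times TPR2 and TPR3, TOPLESS-related corepressors, moved by -0.28 and 0.40 from 5 to 10 min. From 10 to 30 min TPR2 rose by 0.29, CUL1, the cullin of SCF ligases, by 0.24, ARF11 by 0.45 and ARF18 by 0.51.

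Table III, with 2 libraries a group, set the 30 min response in wild type beside that in pif457. In wild type no member was called at 30 min against white light (limma, with 3 at an unadjusted p under 0.05), and of all genes 0.119% were raised and 0.00% lowered. IAA2 was at 40.9 and 58.1 TPM in white light and 85.3 and 78.2 TPM at 30 min (log2 change 0.73, SE 0.233, adjusted p = 0.322), with no overlap. IAA29 was at 2.95 and 6.86 TPM and then at 10.9 and 6.68 TPM, with overlap (log2 change 0.78, adjusted p = 0.718). AFB1 was at 25.2 and 25.6 TPM and then at 34.2 and 34.2 TPM (log2 change 0.41, adjusted p = 0.711). IAA19 was at 2.22 and 5.33 TPM and then at 4.38 and 4.32 TPM. In pif457 no member was called either (1 at an unadjusted p under 0.05), beside 0.00820% of all genes raised and 0.00410% lowered.

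Between the genotypes in white light no member was called (limma, with 1 at an unadjusted p under 0.05), and 0.0123% of all genes were higher and 0.0164% lower in pif457. IAA29 was at 1.02 and 0.68 TPM in pif457 in white light, below both wild-type libraries (log2 change -1.60, SE 0.406, adjusted p = 0.66). At 30 min of low R:FR, where 0.209% of all genes were higher and 5.04% lower in pif457, IAA2 and IAA29 were lower. IAA29 was at 0.77 and 2.11 TPM in pif457 against 10.9 and 6.68 TPM in wild type (log2 change -2.03, SE 0.406, adjusted p = 0.0299). IAA2 was at 30.8 and 46.7 TPM against 85.3 and 78.2 TPM (log2 change -1.08, SE 0.233, adjusted p = 0.0378). The median change of all genes in that comparison was -0.16, and 2 of 43 members lowered is no larger a share than the background.

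Many further members lay below wild type at 30 min with no overlap and no call. IAA3, IAA9, IAA11, IAA13, IAA14, IAA16, IAA17 and IAA28 were among them, as well as the genes given next. The share of all genes separated in this way was not counted. AFB1 was at 14.6 and 23.7 TPM against 34.2 and 34.2 TPM (log2 change -0.84, adjusted p = 0.066), IAA1 at 2.75 and 3.81 TPM against 7.10 and 6.92 TPM (log2 change -0.92, adjusted p = 0.0747) and IAA19 at 1.45 and 2.16 TPM against 4.38 and 4.32 TPM (log2 change -0.94, adjusted p = 0.17). The root markers summed to 723 and 1101 TPM in pif457 and to 1481 and 1289 TPM in wild type at 30 min, and 4 of the 6 were called lower in pif457. These were CASP1 (log2 change -2.98, adjusted p = 0.014), TIP2;3 (-2.94, adjusted p = 0.032), EXPA7 (-2.33, adjusted p = 0.0368) and PRP3 (-3.53, adjusted p = 0.0158). PYK10 was not called, and NRT2.1 was at 0 in both pif457 libraries. In wild type the mean of PRP3 was 2.82 TPM in white light and 22.3 TPM at 30 min, without a call (adjusted p = 0.13). TIP2;3, EXPA7 and CASP1 changed by 1.65, 1.62 and 1.08 on the log2 scale in that comparison, PYK10 by 0.12 and NRT2.1 by -0.30. In pif457 the light changes of PRP3, TIP2;3, EXPA7 and CASP1 were -1.09, -0.66, -0.53 and -0.76, with -0.23 for PYK10 and -0.25 for NRT2.1. None of these changes with light was called. The part of these markers in the values of IAA2, IAA29, AFB1, IAA1 and IAA19 was not tested.

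The IAA2 and IAA29 calls between the genotypes depend on single libraries and on the variance model. Both were lost without replicate 1 of pif457 at 30 min, the library that stood apart, and without replicate 1 of wild type at 30 min, with no member called in either fit. Both were also lost without replicate 2 of wild type at 30 min, which gave 1 other call, and with no variance trend, which gave none. Without replicate 2 of pif457 at 30 min, which leaves the library that stood apart alone, 23 members were called lower. TIR1, at 42.9 and 65.7 TPM against 54.2 and 53.3 TPM, overlapped.

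The test of the difference itself, the genotype by light interaction, called no member (limma, with 2 at an unadjusted p under 0.05), and of all genes 0.00820% had a higher and 0.0328% a lower response in pif457. The interaction was -0.59 for IAA2 (SE 0.329, adjusted p = 0.572) and -0.42 for AFB1 (SE 0.302, adjusted p = 0.692). Over the 43 members the interaction ranged from -0.91 to 0.41, with a median of -0.21 against -0.20 over all genes. It is therefore not shown that the light response of any member differs between the genotypes.

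**Figure D5:**
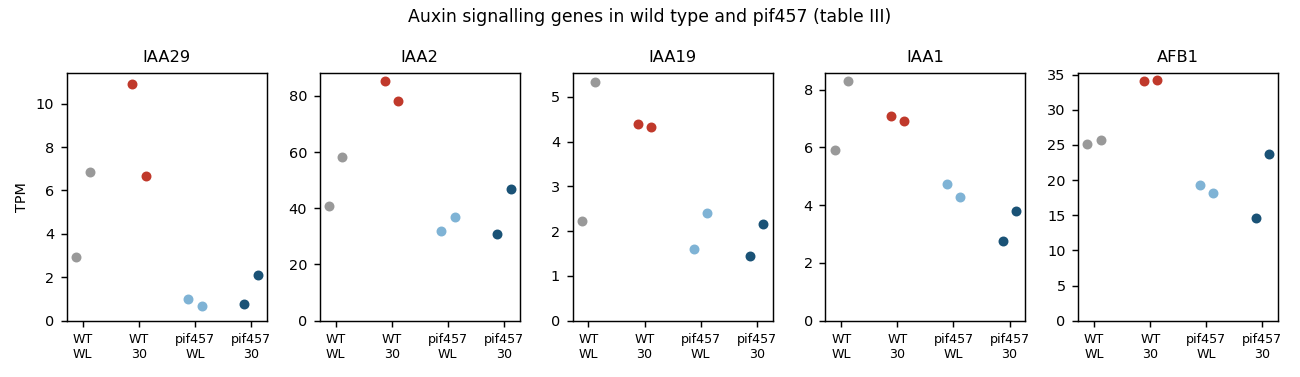
TPM (y axis, linear, from 0) of 5 genes in wild type (WT) and pif457 in white light (WL) and after 30 min of low R:FR (x axis), with 1 point per library and 2 libraries a group. Both pif457 libraries at 30 min lie below both wild-type libraries for all 5 genes, at 0.77 and 2.11 TPM against 10.9 and 6.68 TPM for IAA29, and the left point of the pair is the library that stood apart. Many members not shown here separate in the same way, and the share of all genes that do so was not counted.

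The 3 deposited lists of PIF7 binding events, from chromatin immunoprecipitation of the tagged protein, were searched for the members. An event was assigned to the nearest protein-coding gene within 3 kb or inside it. The list from ZT4 (a time of day) in low R:FR against IgG has 1052 events and reached 6 members, IAA2, IAA3, IAA4, IAA20, IAA30 and ARF6, beside 2.86% of all protein-coding genes. The list of 30 min of low R:FR against white light has 1408 events and reached 5 members, IAA2, IAA3, IAA8, IAA16 and ARF19, beside 4.15%. The third list, also from ZT4 and with 3 samples a side, has 998 events and reached IAA2, IAA3, IAA7, IAA20 and IAA30, beside 3.00%. Its description numbers the low R:FR and white light samples the opposite way to their titles, so that which side is the treated one cannot be told apart. IAA2 and IAA3 were the members reached in all 3 lists. No receptor gene was reached, and neither IAA29 nor IAA19 was the nearest gene to an event.

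The k-mers that the authors' caller attached to the events of the third list show the G-box at 4 members. They are printed as that file gives them, with the G-box in capitals, and are shown because the same 6 bases recur in all 4, IAA2 and IAA7 being called in the expression tables and IAA20 and IAA30 not.
IAA2: agCACGTGgaa
IAA7: tgaCACGTGggct
IAA20: tgcCACGTGggta
IAA30: cgtCACGTGcct
Of all events in that list 79.7% carry CACGTG in their k-mer, against 62.5% in the IgG list and 69.9% in the 30 min list, so that its presence does not set these members apart.

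IAA2 had 2 events in each of the first 2 lists and 3 in the third. One event of each list lay within 1 kb of the gene at position 8182935 to 8182939 of chromosome 3 (TAIR10, positions as the files give them) and carried the G-box in every list. The others lay inside the gene between 8181893 and 8182008, with 2 of them in the third list and 1 in each of the others. Those of the IgG and 30 min lists had k-mers without CACGTG, and those of the third list had no k-mer attached. The authors' fold over control at the G-box site was 6.1 in the IgG list, 7.8 in the 30 min list and 4.0 in the third, and its −log10 q was 54.5, 40.0 and 62.5. In every list an event inside the gene was stronger than the G-box site. Strengths were 564 against 379 in the IgG list, 260 against 245 in the 30 min list and 686 against 593 in the third. The fold of these inside events was 7.7, 4.2 and 4.3. The other inside event of the third list had a strength of 464 and a fold of 5.1. The site beside IAA3 lay at 1129702 to 1129726 of chromosome 1, within 1 kb of the gene, with CACATG as its k-mer in the IgG and 30 min lists. Its fold was 4.5, 5.4 and 3.4.

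The remaining sites were weaker or in fewer lists. IAA30 (chromosome 3, 22994213) and IAA20 (chromosome 2, 19306576) each had a G-box site within 3 kb in both ZT4 lists, with a fold of 3.6 and 6.0 for IAA30 and 3.7 and 5.2 for IAA20. The site of IAA7 (chromosome 3, 8194586) ranked 918 of 998 by strength, that of IAA16 (chromosome 3, 1291385) 1251 of 1408 and that of ARF19 (chromosome 1, 6635133) 1270 of 1408. IAA8 (chromosome 2, 9635375), IAA4 (chromosome 5, 17550083) and ARF6 (chromosome 1, 10693171) had 1 site each, with no CACGTG in the k-mer. Other genes also lie within 3 kb of several of these events, and of every event at IAA2 (AT3G23020) and IAA3 (AT1G04230).

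Set side by side, 18 of the 43 members were called in at least 1 of the 13 comparisons, beside 23.3% of all genes tested, and 10 had an event in at least 1 list, beside 5.09% of protein-coding genes. Of those 10, IAA2, IAA3, IAA4, IAA7, IAA8 and IAA16 were also called, and IAA20, IAA30, ARF6 and ARF19 were not. The other 12 called members, IAA29 and IAA19 among them, had no event by this rule.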

How the data were processed

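Expression values are the authors' deposited TPM. The submitters' processing notes name STAR 2.6.0c with RSEM 1.3.0 on RNA-seq samples, Bowtie2 2.1.0 on ChIP samples and the build TAIR10. The depth of each library is unknown, because TPM does not keep it, and no counting intervals are given. Genes at 1 TPM or more numbered 17714 to 19215 per library. Columns without a sample numbered 0. In the deposited event lists each event has the authors' IP signal (its strength), a fold (the ratio over control), a −log10 q and a k-mer.

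limma 3.58.1 (R 4.3.3) was fitted with a variance trend to log2 values of TPM plus a pseudocount of 1. Genes at 0 throughout a table were left out, which left 25331, 24589 and 24384 genes. All groups of a table shared 1 fit without a replicate block, and tables were fitted separately. p-values were adjusted (Benjamini-Hochberg) over genes within each of 13 comparisons. The procedure was tested on simulated data. No pair of libraries held identical values. The members and lists were chosen with earlier results of these data known. All members may be named, and those called are given by library, up to 12 per comparison. Members matched a RefSeq gene table of TAIR10.1 by locus tag (43 of 43), which served for names and for which of 27444 protein-coding genes lies nearest an event. The table holds no strand, so events are placed by gene span.

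Alternatives were a pseudocount of 0.1, a mean TPM of at least 1, a replicate block, no trend, the compared groups alone, rRNA and organellar genes removed, median centring, each library left out, and for events 1 kb, strength above the median and any gene within 3 kb. Samples of histone marks and H2A.Z were not analysed here. Events and figures were handled in Python 3.11.15 (pandas 2.3.3, numpy 2.4.6, matplotlib 3.10.9).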

Additional observations from a re-analysis of the deposited data

How the results depend on the processing

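No value of a called member changed direction in any alternative. Of 48 calls of a member in a comparison, 28 held in every alternative run and 20 were lost in at least 1. IAA2, IAA16 and IAA29 at 30 min in the line with tagged PIF7, and IAA2, IAA3, IAA4, IAA5, IAA6, IAA9, IAA19, IAA29, IAA32 and IAA34 at 2 h in wild type, are among those that held. Leaving out 1 library gave 10 to 11 members at 2 h (12 with all), 0 to 1 at 5 min (2), 0 to 5 at 10 min (3), 2 to 5 from 5 to 10 min (6), 0 to 1 in wild type at 30 min (0), 0 to 16 in pif457 at 30 min (0), 0 to 23 between genotypes at 30 min (2) and 0 to 8 for the interaction (0). The 16, 23 and 8 came without replicate 2 of pif457 at 30 min, which leaves the library that stood apart, and the lone library is then assumed to vary like the other groups. At 10 min, 5 came without replicate 2 of white light, and 0 without replicate 1 or 3 of white light or replicate 1 of 10 min.

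TIR1 at 2 h was also lost with no variance trend (adjusted p = 0.111) and with the compared groups alone (adjusted p = 0.0875). At 5 min, no variance trend, median centring, removal of rRNA and organellar genes and the compared groups alone each gave 1 call. At 10 min, centring gave 1 and the compared groups alone 0. A mean TPM of at least 1 gave 1 call in wild type at 30 min, 1 between genotypes in white light and 6 at 30 min. In the last comparison removal of rRNA and organellar genes gave 6, the compared groups alone 6, no trend 0, and centring 7, of which 2 were higher and 5 lower, while the median of all genes moved from -0.16 to 0.06. The cause was not tested. The main fits did not pair libraries by replicate number. Residuals of same-number libraries correlated with a median of -0.00875, -0.0579 and -0.0166 in tables I, II and III, and at most 0.0613, 0.331 and 0.366. In table II 4 of 18 pairs were above 0.1, and in table III 4 of 12. With 2 libraries a group, same-number and different-number values mirror each other, so that these values do not settle whether libraries were paired. The replicate block gave 11 members at 2 h, 5 from 5 to 10 min and 5 from 10 to 30 min (6 without it). For events, 1 kb gave 3 members in the IgG list and 3 in the third list, strength above the median 3 in the 30 min list and 3 in the third, and any gene within 3 kb 10 and 8 in these lists. Unknown depth limits what the genes near 0 can show.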
